A study of Homo sapiens with 6 samples.

Results

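The WDR5 partner genes outside the WRAD core (WDR5, RBBP5, ASH2L and DPY30, shared by the H3K4 methyltransferase complexes) were examined in WDR5-silenced breast cancer cells. They are 10 genes, KANSL1, KANSL2, KANSL3, KAT8, HCFC1, OGT, MCRS1, PHF20, MEN1 and CXXC1, taken by name from the 26334 genes of the count table. MCF10DCIS.com (hereafter MCF10DCIS) is a human basal-like breast cancer line of the MCF10A lineage that forms lesions resembling ductal carcinoma in situ in mice. Poly(A) RNA was sequenced from 3 control samples (shLuc, a hairpin against luciferase) and 3 silenced samples (shWDR5). Cells of both groups carried the same lentiviral backbone, with a U6-driven hairpin and TagRFP and puromycin resistance behind the UbiC promoter, were selected with puromycin, and grew in the same horse serum medium. Each group is therefore a selected, infected population of a single line, and the study describes a pool of WDR5 hairpins for this line. The paper presents its data in general as biological triplicates unless stated otherwise, and leaves the statistics of RNA-seq to its supplementary methods. The labels do not say whether replicates were separate cultures, so the p-values measure the spread between these samples, which may be technical.

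WDR5 is a WD40 repeat scaffold that serves several chromatin complexes besides the MLL/SET1 methyltransferases. In the non-specific lethal (NSL) complex it sits with KANSL1, the scaffold, KANSL2, KANSL3, PHF20, which reads methylated lysines, MCRS1, HCF1 (encoded by HCFC1), the O-GlcNAc transferase OGT, and KAT8 (MOF), the acetyltransferase that modifies histone H4 at promoters of housekeeping genes. HCF1 and OGT also join the SET1 complexes, and OGT both glycosylates HCF1 and cuts it into its mature subunits. Menin, encoded by MEN1, tethers MLL1 and MLL2 to their target genes, and CXXC1 (CFP1) brings the SET1 enzymes to unmethylated CpG-rich promoters. The comparison of shWDR5 with shLuc asked whether silencing of the shared scaffold went along with altered transcript levels of these partners.

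The partner transcripts changed little, and not in a single direction. By edgeR's quasi-likelihood test with Benjamini-Hochberg adjustment over the 16117 genes that passed the count filter (adjusted p limit 0.05), 2 of the 10 genes rose in shWDR5 cells (KANSL1 and KANSL2), 4 fell (MCRS1, HCFC1, MEN1 and KAT8) and 4 did not pass (PHF20, OGT, CXXC1 and KANSL3). The called changes lay between -20.9% (MCRS1) and 19.0% (KANSL1). The 6 calls, 60.0% of the partners, stood beside 56.5% of all tested genes called in either direction, with 26.6% called higher and 29.9% called lower. The median absolute log2 fold change was 0.21 for the partners, 0.31 for all tested genes and 0.50 for all called genes. With the limits that the study set for its own gene lists (absolute log2 fold change of at least 0.6 and a level over 0.5 RPKM as well), 18.4% of tested genes were called and 0 of the 10 partners. The largest partner change was that of MCRS1, a log2 fold change of -0.34 in edgeR and -0.32 by DESeq2. No partner could therefore pass that fold limit at any p-value. The counts of 0 at an unadjusted p under 0.05 in edgeR and 0 by DESeq2 add nothing to this.

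The bases just upstream of a listed start of called partners are shown so that these windows can be compared. RefSeq promoter windows (build GRCh38.p14, 250 bases before to 50 after a gene's first listed start) were matched by symbol for 8 of the 10 partners and 4 of the 6 called ones, named here as KANSL1 and KANSL2 (higher in shWDR5) and MCRS1 and MEN1 (lower). The 250 upstream bases are printed 5′ to 3′ on the gene's strand, which is the minus strand in all 4, at chr17:46224760-46225009, chr12:48682239-48682488, chr12:49566440-49566689 and chr11:64810552-64810801. Capitals mark the E-box CACGTG, the palindromic site of MYC-MAX dimers.
KANSL1: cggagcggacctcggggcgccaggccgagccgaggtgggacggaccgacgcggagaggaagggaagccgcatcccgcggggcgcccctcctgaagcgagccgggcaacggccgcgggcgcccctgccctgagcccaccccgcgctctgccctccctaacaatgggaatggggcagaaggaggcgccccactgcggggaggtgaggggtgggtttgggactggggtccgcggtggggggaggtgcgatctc
KANSL2: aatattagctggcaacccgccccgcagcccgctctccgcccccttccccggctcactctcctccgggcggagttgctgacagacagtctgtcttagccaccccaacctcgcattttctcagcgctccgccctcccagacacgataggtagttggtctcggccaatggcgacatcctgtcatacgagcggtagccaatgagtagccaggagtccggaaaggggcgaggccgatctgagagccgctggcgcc
MCRS1: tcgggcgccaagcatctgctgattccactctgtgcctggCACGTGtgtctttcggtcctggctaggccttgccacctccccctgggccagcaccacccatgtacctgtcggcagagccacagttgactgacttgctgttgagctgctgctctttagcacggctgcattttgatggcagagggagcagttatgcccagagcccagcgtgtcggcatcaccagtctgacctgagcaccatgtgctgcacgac
MEN1: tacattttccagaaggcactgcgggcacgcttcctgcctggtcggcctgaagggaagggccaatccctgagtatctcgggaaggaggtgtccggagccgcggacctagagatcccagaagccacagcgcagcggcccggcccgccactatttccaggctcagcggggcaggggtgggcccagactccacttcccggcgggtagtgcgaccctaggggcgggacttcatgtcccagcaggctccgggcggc

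The KANSL1, KANSL2 and MEN1 windows are rich in CpG, and the MCRS1 window is not. The source listed 3 starts for KANSL1, 2 for MEN1 and 1 each for KANSL2 and MCRS1. The windows were not placed against the hg19 gene spans of the counts. A window, that of MCRS1 included, may therefore lie at a start inside the gene and not at its main promoter. Over the 300-base windows, KANSL1 held 30 CpG dinucleotides, KANSL2 27 and MEN1 25, whereas MCRS1 held 12, the fewest of the 8 partners, whose range was 12 to 38 and median 27.5. The median over the windows of the 11381 tested genes that matched was 25. The letters CACGTG occurred in 2 of the 8 partner windows, and in 9.55% of the windows of tested genes. MCRS1 held them at 211 bases before and 5 bases after the start, and PHF20, a partner that was not called, at 8 bases before it. Of 5 other strings searched on both strands, CCGGAAG was found in KANSL3, AAGATGG in CXXC1 and GCGCATG in OGT, against 17.2%, 7.21% and 6.94% of the windows of tested genes, while TGACGTC and ACTACAA matched no partner (5.39% and 3.57% of tested genes). These are letter matches in a single window per gene, not binding sites.

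The depth and the labels were checked first. The 6 libraries held 38218108 to 57640167 counted reads, and log2 CPM profiles correlated at 0.995 to 0.997 across genes within a group and at 0.973 to 0.979 between groups. The 100 most abundant genes took 19.3% to 20.3% of reads in shLuc and 22.7% to 23.7% in shWDR5, a difference in library make-up that moved with the groups. WDR5 itself stood at 16.5, 15.2 and 16.1 RPKM (reads scaled to exonic length and to TMM-adjusted library size) in shLuc replicates 1 to 3, and at 7.34, 7.65 and 6.52 RPKM in shWDR5 replicates 1 to 3. Every silenced library was below every control, a change of -55.0% in the fit (log2 fold change -1.15, SE 0.07, adjusted p = 8.67e-07). Epithelial markers were abundant in all libraries. Of 7, 4 were higher (KRT5, KRT14, KRT17 and TP63) and 2 lower (CDH1 and EPCAM), beside 56.5% of all tested genes called. Their summed level was 2845 to 3061 RPKM in shLuc against 4168 to 4705 RPKM in shWDR5. The rise of the sum came mainly from KRT17 (group means of 1372 and 2624 RPKM) and KRT5 (356 and 671 RPKM). In contrast, CDH1 went from 103 to 50.3 RPKM (log2 fold change -1.03, adjusted p = 2.64e-07, edgeR) and EPCAM from 165 to 131 RPKM. Of the markers of other cell types, LUM and CD3E had no read, and summed levels were 3.65 to 3.99 RPKM in shLuc and 2.52 to 3.01 in shWDR5 for 5 fibroblast genes, 5.74 to 7.11 and 5.62 to 6.73 for 4 immune genes, and 1.72 to 1.79 and 1.05 to 1.19 for 3 endothelial genes. Most of each sum came from a single gene, COL1A1, CD68 and PECAM1 in turn (3.72, 6.39 and 1.46 RPKM in shLuc). Every other gene of these lists had group means of at most 0.272 RPKM. COL1A1 (log2 fold change -0.50, adjusted p = 0.000438, edgeR) and PECAM1 (-0.71, adjusted p = 5.65e-05) were called lower. CD68, PDGFRB and CDH5 were not called, and the rest did not pass the count filter. The part of these marker and library differences in the results was not tested. In these bulk samples, a change in the mix of cells and a change per cell cannot be told apart.

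All 10 partners were expressed in every library, on 608 to 12901 reads each. On the RPKM scale, which allows for gene length, their order in shLuc was led by OGT (40.3 RPKM, above 89.7% of tested genes), then MCRS1 (24.8 RPKM) and HCFC1 (18.5 RPKM), with no overlap between these neighbours over the 3 libraries. MEN1, KANSL2 and KANSL1 followed between 10.6 and 12.1 RPKM and overlapped each other in turn. CXXC1, KANSL3 and KAT8 came next between 8.27 and 10.2 RPKM, again with overlapping neighbours, and PHF20 was lowest at 6.49 RPKM, still above the median of 5.45 RPKM over tested genes. In shWDR5 the order differed at a single point: MEN1, at 10.1 RPKM, lay below KANSL2 (13.2 RPKM) and KANSL1 (12.9 RPKM), and its libraries no longer overlapped theirs.

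KANSL1 organizes the NSL complex and contacts WDR5 directly. Its gene spans chr17:44107282-44302740 on the minus strand (hg19, the build of the counts). The level of KANSL1 was 10.98, 10.9 and 10.6 RPKM in shLuc and 13.7, 12.6 and 12.3 RPKM in shWDR5. All 3 silenced libraries lay above all 3 controls. The rise was 19.0% (95% interval 8.53% to 30.4%), with a log2 fold change of 0.25 (SE 0.06, adjusted p = 0.00452, edgeR). KANSL1 lies in a duplication-rich stretch of its chromosome, and how reads that map to several places were counted is not given in the sources used here. Its antisense neighbour KANSL1-AS1 shared no exonic base with it and held 13 to 22 reads per library.

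KANSL2, another NSL subunit that binds WDR5 directly, lies at chr12:49046995-49076035 on the minus strand. It stood at 12.01, 11.8 and 10.7 RPKM in shLuc and at 13.1, 13.3 and 13.2 RPKM in shWDR5. The groups did not overlap, and the spread was wider among the controls (SD 0.695 RPKM) than among the silenced libraries (SD 0.0726 RPKM), with n = 3 each. KANSL2 rose by 14.9% (95% interval 3.92% to 27.1%), a log2 fold change of 0.20 (SE 0.07, adjusted p = 0.0231, edgeR). This call was lost in 4 of 6 fits that left out a library (shLuc replicate 2 or 3, shWDR5 replicate 2 or 3), with adjusted p of 0.0551 to 0.0884, and with library totals as the sole scaling (adjusted p = 0.0775). The log2 fold change in those 4 fits was 0.20 to 0.21, apart from 0.15 without shLuc replicate 3.

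KANSL3, the third KANSL subunit, maps to chr2:97258892-97304116 on the minus strand. Its level was 10.2, 8.94 and 8.65 RPKM in shLuc and 9.08, 8.96 and 8.35 RPKM in shWDR5, so the groups overlapped and shLuc replicate 1 stood above the rest. The log2 fold change of -0.077 (SE 0.07, adjusted p = 0.405) came with a 95% interval from a fall of 15.4% to a rise of 6.27%. Without shLuc replicate 1 the value turned to 0.015 (adjusted p = 0.862).

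KAT8, the catalytic subunit, lies at chr16:31128985-31142714 on the plus strand and had the fewest reads of the partners, 608 to 855 per library. It stood at 9.49, 8.93 and 8.27 RPKM in shLuc and at 8.05, 7.53 and 7.51 RPKM in shWDR5. The lowest control was just above the highest silenced library. KAT8 fell by 13.5% (95% interval of the change -23.0% to -2.88%), with a log2 fold change of -0.21 (SE 0.08, adjusted p = 0.0357, edgeR). This was the highest adjusted p of the 6 calls. The call was lost without shLuc replicate 1 or 2 and without shWDR5 replicate 2 or 3 (adjusted p of 0.0688 to 0.148), with DESeq2's size factors (adjusted p = 0.0526) and in DESeq2's own Wald test (adjusted p = 0.0853). The log2 fold change in those 6 fits was -0.22 to -0.19, apart from -0.14 without shLuc replicate 1.

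MCRS1, a subunit shared by the NSL and INO80 complexes, showed the largest change among the partners. Its gene lies at chr12:49952077-49961928 on the minus strand. The sequence printed above, upstream of its 1 listed start, was the only one of the 4 with an E-box. No other start of the gene was searched. The level was 26.6, 24.7 and 23.2 RPKM in shLuc and 21.2, 19.2 and 18.6 RPKM in shWDR5, without overlap. MCRS1 fell by 20.9% (95% interval of the change -29.4% to -11.4%), a log2 fold change of -0.34 (SE 0.07, adjusted p = 0.00268, edgeR), which in size exceeded that of 54.3% of tested genes. It shares 1 exonic base with KCNH3 on the opposite strand, which held 44 to 66 reads.

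PHF20, the methyl-lysine reader of the complex, lies at chr20:34359923-34538288 on the plus strand. It stood at 6.26, 6.64 and 6.58 RPKM in shLuc and at 6.74, 7.04 and 7.43 RPKM in shWDR5. The groups did not overlap, yet the difference did not pass the test (log2 fold change 0.12, SE 0.06, adjusted p = 0.116), and its 95% interval ran from a fall of 1.02% to a rise of 19.9%. Over all partners, 7 of 10 had groups that did not overlap, as did 62.3% of tested genes.

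HCFC1, which encodes the transcriptional co-regulator HCF1, lies at chrX:153213008-153236819 on the minus strand. Its level was 18.8, 19.1 and 17.5 RPKM in shLuc and 15.9, 14.5 and 14.5 RPKM in shWDR5. All silenced libraries were below all controls. HCFC1 fell by 19.0% (95% interval of the change -26.2% to -11.2%), with a log2 fold change of -0.30 (SE 0.06, adjusted p = 0.00152, edgeR), the smallest adjusted p of the 10 genes.

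OGT, the enzyme that attaches O-GlcNAc to nuclear and cytoplasmic proteins, was the most abundant partner and showed the smallest change. The gene lies at chrX:70752912-70795747 on the plus strand. OGT was at 39.97, 40.3 and 40.8 RPKM in shLuc and at 40.7, 41.4 and 41.03 RPKM in shWDR5. The fitted change of 1.72% (log2 fold change 0.025, SE 0.05, adjusted p = 0.684) had a 95% interval from -5.40% to 9.37%, and its sign turned with library totals as the sole scaling (log2 fold change -0.033). The short RNA gene BCYRN1 is listed at a place that overlaps the OGT locus, with no shared exonic base, and held 1012 to 2248 reads. Those reads are counted over all places listed for that symbol and were not assigned to this locus.

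MEN1 encodes menin, a tumour suppressor in endocrine tissue and a cofactor of MLL proteins. It lies at chr11:64570986-64578766 on the minus strand. The level was 12.1, 12.03 and 11.1 RPKM in shLuc and 10.4, 10.1 and 9.92 RPKM in shWDR5, again with no overlap. MEN1 fell by 13.97% (95% interval of the change -21.6% to -5.60%), with a log2 fold change of -0.22 (SE 0.06, adjusted p = 0.0105, edgeR).

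CXXC1, at chr18:47808713-47814692 on the minus strand, did not pass the test. It stood at 9.93, 9.31 and 8.90 RPKM in shLuc and at 9.37, 8.80 and 8.61 RPKM in shWDR5, with overlapping groups. The log2 fold change was -0.072 (SE 0.07, adjusted p = 0.400), with a 95% interval from a fall of 14.4% to a rise of 5.71%. Its processed copy CXXC1P1 was listed with 0 reads in all libraries.

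**Figure D1:**
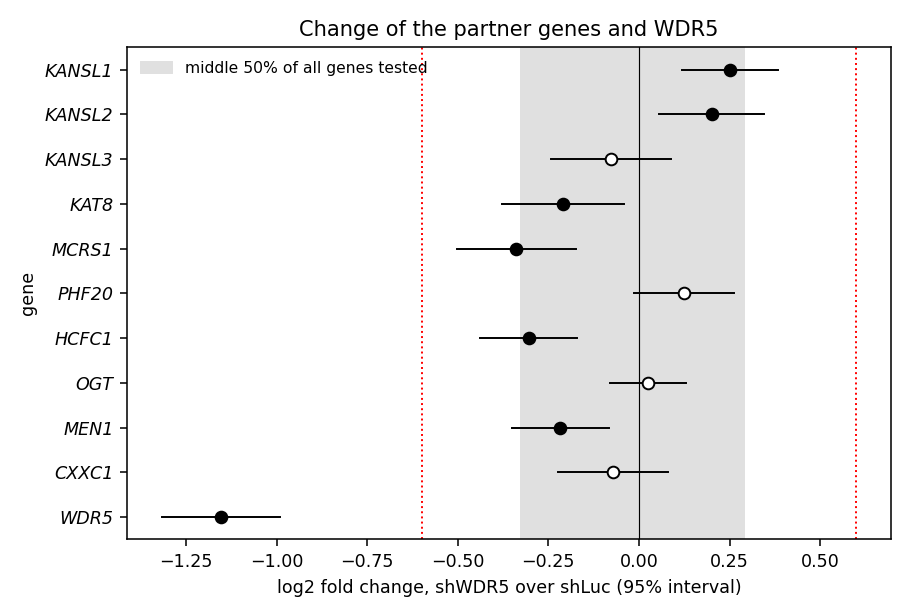
Log2 fold change (shWDR5 over shLuc) of each partner gene and WDR5 with its 95% interval; filled points passed an adjusted p of 0.05 in edgeR, red lines mark the study's fold limit of 0.6 and the grey band holds the middle 50% of all tested genes. The partner points lie between -0.34 and 0.25, all but MCRS1 inside the band, while WDR5 lies at -1.15.

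Levels were also set against each other within a library, which removes the scaling between libraries. The pairs were picked after the values were seen, mostly as a gene that rose over one that fell, so the direction of each shift was set by the choice and restates the changes given above. The ratios are descriptions with no test. The RPKM ratio of KANSL1 to MCRS1 was 0.413, 0.440 and 0.459 in shLuc and 0.649, 0.658 and 0.663 in shWDR5. KANSL2 to MCRS1 moved alike, from 0.463 ± 0.0129 to 0.675 ± 0.0487 (SD, n = 3). The ratio of KANSL1 to KAT8 was 1.22 ± 0.0654 in shLuc and 1.67 ± 0.0349 in shWDR5, and that of KANSL1 to KANSL3 was 1.17 ± 0.0878 and 1.47 ± 0.0522. OGT to HCFC1, the enzyme to its substrate, went from 2.19 ± 0.126 to 2.75 ± 0.162.

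The other genes of the partners' pathways were taken from 11 lists, 71 genes in all with WDR5 itself and 70 without it, and all were tested. Of the 70, 14 rose and 19 fell in shWDR5 cells, that is 47.1%, beside 56.5% of all tested genes. Their median log2 fold change was -0.037, against -0.011 for all tested genes. The median absolute log2 fold change of the 71 was 0.17, beside 0.21 for the partners and 0.31 for all tested genes. Small changes were therefore not particular to the partners. At the study's limits 3 of the 70 were called (HCFC2, GFPT2 and PSIP1). Calls in both directions were found in 7 of the 11 lists, and the counts of the short lists below are to be read beside the shares over all tested genes, 26.6% higher and 29.9% lower.

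Of the other WRAD core genes, ASH2L and DPY30 fell with WDR5 and RBBP5 rose. ASH2L went from 12.2 ± 0.520 to 8.16 ± 0.128 RPKM (SD, n = 3; log2 fold change -0.59, SE 0.06, adjusted p = 2.05e-05, edgeR) and DPY30 from 49.4 ± 0.795 to 34.8 ± 3.07 RPKM (-0.50, adjusted p = 0.000201), while RBBP5 went from 6.77 ± 0.167 to 8.31 ± 0.247 RPKM (0.30, adjusted p = 0.00167).

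KAT8 also acts in the MSL complex, which acetylates H4 on its own targets. All 3 MSL genes passed the test, in both directions: MSL1 and MSL3 rose (log2 fold change 0.17 and 0.19, adjusted p = 0.0223 and 0.0238, edgeR) and MSL2, the ubiquitin ligase of the complex, fell (-0.25, adjusted p = 0.0113). Among the other MYST acetyltransferases, KAT6B rose (0.30, adjusted p = 0.00269) and KAT6A fell (-0.17, adjusted p = 0.0237). KAT5 (0.13, adjusted p = 0.125) and KAT7 (0.072, adjusted p = 0.362) did not pass.

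HCF1-linked genes were mostly not called (7 of 9). Of the 2 that passed, HCFC2, the paralog of HCFC1, fell from 2.04 ± 0.196 to 1.25 ± 0.0953 RPKM (log2 fold change -0.70, SE 0.10, adjusted p = 0.000129, edgeR), and HCFC1R1, which encodes a protein that promotes export of HCF1 from the nucleus, rose from 8.93 ± 1.02 to 13.3 ± 0.664 RPKM (0.57, SE 0.09, adjusted p = 0.00038).

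Of 6 enzymes of the hexosamine pathway and O-GlcNAc removal, 3 rose, 1 fell and 2 did not pass, beside 56.5% of all tested genes called. The removing enzyme MGEA5 (OGA) rose from 25.4 ± 0.491 to 33.6 ± 0.576 RPKM (log2 fold change 0.41, SE 0.05, adjusted p = 5.8e-05, edgeR). GFPT1, the rate-limiting enzyme of the hexosamine pathway that supplies UDP-GlcNAc, rose from 14.1 ± 0.978 to 19.4 ± 1.18 RPKM (0.47, SE 0.07, adjusted p = 0.000193). Its paralog GFPT2 rose as well, at a low level of 0.468 ± 0.132 and 0.737 ± 0.0869 RPKM (0.64, SE 0.19, adjusted p = 0.0159). UAP1, the last enzyme of the pathway and named here after its values were seen, as the 1 gene of the list that fell, went from 65.5 ± 0.627 to 53.7 ± 0.128 RPKM (-0.29, SE 0.05, adjusted p = 0.000498).

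Among 5 genes of menin's partners, 2 fell and 3 did not pass. PSIP1, which encodes LEDGF, the protein that anchors the menin-MLL complex on chromatin, went from 31.5 ± 4.16 to 19.6 ± 2.41 RPKM (log2 fold change -0.69, SE 0.11, adjusted p = 0.000328, edgeR), and KMT2A (MLL1) from 9.78 ± 0.154 to 8.14 ± 0.224 RPKM (-0.26, SE 0.05, adjusted p = 0.00118). Of 5 textbook targets of menin and MLL (CDKN1B, CDKN2C, HOXA9, HOXA10 and MEIS1), edgeR called 0, with 0 at an unadjusted p under 0.05 and 0 by DESeq2. HOXA9, HOXA10 and MEIS1 had group means of 0.901 to 1.11 RPKM, and the 95% interval of HOXA9's log2 fold change ran from -0.39 to 0.23.

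Of the 3 genes that act with CXXC1 in the SET1 complexes, 2 rose. SETD1A went from 6.33 ± 0.384 to 8.23 ± 0.592 RPKM (log2 fold change 0.38, SE 0.07, adjusted p = 0.00123, edgeR) and SETD1B from 5.18 ± 0.119 to 6.84 ± 0.207 RPKM (0.40, SE 0.06, adjusted p = 0.000157), while WDR82, the subunit that links them to RNA polymerase II, was not called (0.058, adjusted p = 0.375). Among 9 other genes with a CXXC domain, 2 rose and 3 fell, the largest called changes being DNMT1, the maintenance DNA methyltransferase (-0.59, adjusted p = 9.16e-06), FBXL19 (0.50, adjusted p = 8.87e-05) and TET1 (-0.46, adjusted p = 0.0254, at 0.334 and 0.239 RPKM).

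In the other complexes that share a subunit with these genes, the ATAC acetyltransferase complex, which contains WDR5, had 2 genes higher and 4 lower of 10, led by CSRP2BP (log2 fold change 0.57, adjusted p = 0.000126, edgeR), KAT2B (-0.44, adjusted p = 0.00606) and YEATS2 (0.39, adjusted p = 0.000138). The INO80 remodelling complex, to which MCRS1 belongs, had 4 lower of 13 and 9 not called, close to the 29.9% of all tested genes called lower. INO80D (-0.48, adjusted p = 0.0055), the deubiquitinase UCHL5 (-0.39, adjusted p = 0.00249) and the ATPase RUVBL1 (-0.22, adjusted p = 0.00789) showed the largest falls, beside the -0.34 of MCRS1.

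Across the 11 alternative fits, KANSL1, HCFC1, MCRS1 and MEN1 passed the test in all 11, KANSL2 in 6, KAT8 in 5 and PHF20 in 1. MEN1 came nearest to the limit, with an adjusted p of up to 0.0427 in edgeR. The highest values for KANSL1, HCFC1 and MCRS1 were 0.0160, 0.0106 and 0.0158. The direction held in all 11 for 8 partners, the exceptions being KANSL3 and OGT with 10 each.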

How the data were processed

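Poly(A) RNA libraries (TruSeq, Illumina) of 3 shLuc and 3 shWDR5 MCF10DCIS samples were used as the deposited table of raw read counts per gene. The submitters' processing notes name TopHat2 2.1.0, featureCounts, edgeR 3.2.2 and the builds hg19 and GRCh37. The strand setting and the treatment of multi-mapping reads are not given in the sources used here. The second deposited table holds the authors' own edgeR fold changes and p-values and was not used. Counts were filtered with filterByExpr, scaled by TMM and tested with edgeR 4.0.16 (R 4.3.3) in a model with the group alone (4 residual degrees of freedom). P-values were adjusted by Benjamini-Hochberg over 16117 genes, and standard errors and 95% intervals were derived from the F statistic. RPKM used the exonic length that the deposited table gives. Alternatives were DESeq2 1.42.0, its size factors, library totals, no filter, the replicate block, the study's limits and leaving out each library.

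The partner genes, lists and motifs were chosen with earlier results of these data known. All partners and WDR5 were named, with every gene of a list of 4 or fewer and otherwise up to 3 called genes of largest change per list. Outside this rule, and after their values were seen, UAP1, the 5 menin-MLL targets, marker genes, paralogs and overlapping genes were also named. Library totals of 38218108 to 57640167 reads set the counting precision. Intervals cover the spread between libraries, not other cultures or hairpins.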

Additional observations from a re-analysis of the deposited data

How the results depend on the processing

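The calls of KANSL1, MCRS1, HCFC1 and MEN1 kept their direction and stayed past the threshold in all 11 alternative fits. MEN1 did so narrowly in some (adjusted p of up to 0.0427, edgeR). The log2 fold change of WDR5 ranged from -1.21 to -1.09. With the study's limits on fold change and RPKM, 0 partners were called higher and 0 lower, 1274 genes were called higher and 1688 lower of all tested, and 4 listed pathway genes were called, WDR5 among them. With library totals as the sole scaling, 1 partner was called higher in place of 2, and the log2 fold change of OGT turned to -0.033. Leaving out a library gave 1 to 2 partners called higher, 3 to 4 called lower, 3803 to 4263 genes higher, 4271 to 4584 lower and 29 to 35 listed genes. Without shLuc replicate 1, the library in which its level was highest, KANSL3 turned from -0.077 to 0.015, and its values ranged from -0.13 to 0.015 over the fits that left out a library. The cause of these changes was not tested.

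The replicate number appeared in the labels without a stated meaning. Deviations of same-numbered libraries from their group means correlated at 0.37, 0.036 and 0.12 across genes, not every pair over 0.1, and not every library correlated best with its own number. The fit with a replicate block called 3 partners higher and 4 lower, PHF20 being the added one (log2 fold change 0.12, adjusted p = 0.0358), and 4901 genes higher and 5511 lower of all tested. KAT8 rested on the fewest reads of the partners.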

Other observations

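PHF20L1, the paralog of PHF20 and on none of the lists, fell in shWDR5 cells (log2 fold change -0.43, adjusted p = 0.000939, edgeR), on 1793 to 1998 reads in shLuc and 1404 to 1884 in shWDR5. KANSL1L, the paralog of KANSL1, had 207 to 266 reads in shLuc and 259 to 385 in shWDR5 and did not pass (0.27, adjusted p = 0.103). Both were chosen after their values were seen. No difference between these paralogs and the partner genes was tested.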
